A study of Fragaria vesca with 8 samples.

Results

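Of 34009 annotated genes of woodland strawberry (*Fragaria vesca*), 115 stood far above the empty vector of the same experiment in fruits that overexpressed *FvMYB46* and at about the empty-vector level in fruits that overexpressed *FvVND4c*. The 115 genes were selected on measured values of all 8 libraries of the study. CPM, the count scaled to a library total of 1000000, was computed from the column sums, and L_M was the log2 ratio of the mean CPM upon *FvMYB46* overexpression over that of the empty vector of the same experiment, with 0.5 CPM added to each mean. L_V was the same ratio for *FvVND4c*. For genes with few counts the added 0.5 CPM holds L_V near 0, so a change upon *FvVND4c* overexpression cannot be read for them. Of the 115 genes, 28 had at most 3 counts over both *FvVND4c* overexpression libraries, and 19 over both libraries of its empty vector. A gene was kept with L_M of at least 2.5, L_V between -0.5 and 0.5 and over 3 counts in total in the 4 empty-vector libraries, and genes starting in a region of 200 kb on chromosome 5 or of 300 kb on chromosome 4 were left out by the rule, which removed 1 gene. L_M and L_V are therefore given below as a description, without a test.

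The study infiltrated strawberry fruits, labelled WT in the empty-vector groups, with an *Agrobacterium* strain carrying *35S:FvMYB46*, with the empty vector run beside it, with *35S:FvVND4c*, or with the empty vector run beside that, and sampled the fruits 7 days later. Each of these 4 groups has 2 libraries in the labels, and the empty vectors are labelled as controls of one construct or the other. The 35S promoter drives expression in most plant cell types, and transient infiltration reaches only some cells of a fruit, so each library mixes infiltrated and other cells. In such bulk samples, fewer cells of a type and less RNA per cell cannot be told apart. The libraries held between 9765362 and 12845942 counts. How fruits were divided among libraries is not stated, so p-values measure only the spread between libraries, which may be technical. The libraries of the *FvMYB46* and the *FvVND4c* experiment differ in construct and in experiment at once, so in a comparison across them these cannot be told apart.

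In Arabidopsis, NAC proteins of the VND family and the MYB protein MYB46 act as master switches of the secondary cell wall, the thick layer of cellulose, xylan and lignin laid down in vessels and fibres. VND proteins stand above MYB46 and activate it, and MYB46 in turn activates genes of the wall polysaccharides and of lignin synthesis. Lignin monomers come from the phenylpropanoid pathway, which also feeds flavonoids and anthocyanins in fruit. The files name genes by identifier only, and none of them could be paired with a name, since 0 of the 34009 were found among the 24946 genes of the RefSeq table used. The roles of the 115 genes, the level of the infiltrated genes themselves and markers of fruit cell types are therefore not given here.

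The 115 genes made up 0.531% of the 21666 genes with over 3 counts in the empty-vector libraries outside the regions left out. Among the 357 such genes with L_M of at least 2.5, they were 32.2%. The others comprised 203 genes with L_V above 0.5 and 39 with L_V below -0.5. Values at the limits ran on without a gap. The 2 lowest L_M inside the selection were 2.516 and 2.521, and the 2 highest outside it were 2.498 and 2.497. L_V reached 0.49 and -0.48 inside and began at 0.51 and -0.51 outside. Within the L_V window, 11 selected genes had L_M under 2.6, and 18 genes that were not selected had L_M of 2.4 to 2.5.

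Upon *FvMYB46* overexpression, the 115 genes held 5126 and 5248 CPM in all in the 2 libraries. They held 496 and 411 CPM in the empty vector of that experiment. In the other experiment they held 977 and 1003 CPM upon *FvVND4c* overexpression, against 1013 and 1001 CPM in its empty vector. The sum was thus lowest in the *FvMYB46* empty vector, and both libraries of that group lay below all 4 libraries of the *FvVND4c* experiment. All 115 genes reached 1 CPM in both *FvMYB46* overexpression libraries. In the *FvMYB46* empty vector 43 and 34 of them did so, against 49 and 46 upon *FvVND4c* overexpression and 48 and 46 in its empty vector. Outside *FvMYB46* overexpression, 54 of the 115 genes stood below 1 CPM in all 6 other libraries, while 33 stood at 1 CPM or more in all 6.

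**Figure D1:**
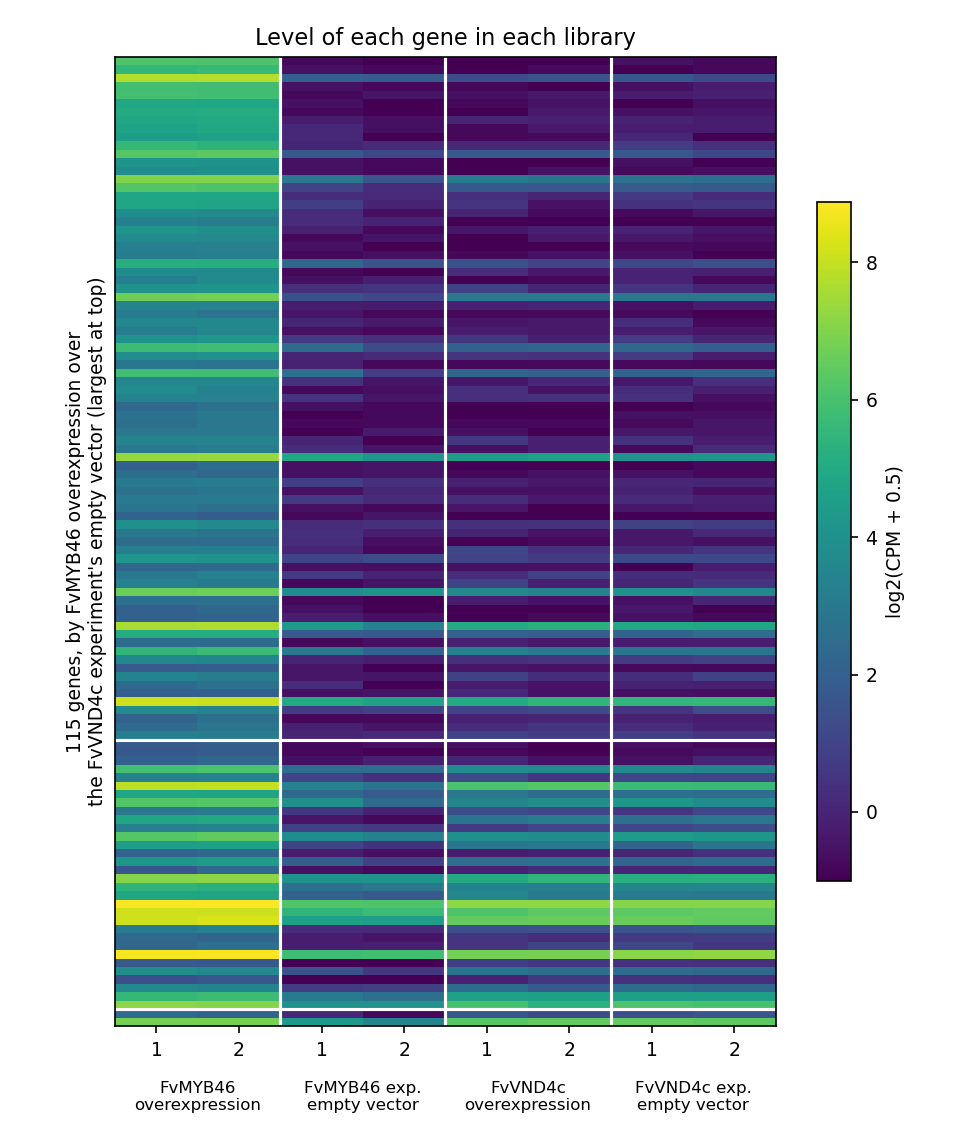
Level of each of the 115 genes as log2(CPM + 0.5), coloured on the scale at the right, in the 8 libraries (columns, 2 libraries per group). Rows are ordered by the log2 ratio of *FvMYB46* overexpression over the *FvVND4c* empty vector, and white lines set off the 81, 32 and 2 genes with ratios of at least 2.5, 1 to 2.5 and under 1. The left pair of columns is brighter than the rest in the top block. In most rows of the lower blocks the *FvMYB46* empty vector is darker than both groups of the *FvVND4c* experiment.

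The genes spanned a wide range of levels. Upon *FvMYB46* overexpression their mean level ran from 2.43 to 456 CPM with a median of 11.4 CPM, against a median of 0.420 CPM and a highest value of 71.1 CPM in the empty vector of that experiment. The medians in the *FvVND4c* experiment were 0.721 CPM upon overexpression and 0.697 CPM in the empty vector. By level upon *FvMYB46* overexpression, 19 genes stood below 5 CPM, 29 at 5 to 10 CPM, 41 at 10 to 50 CPM, 11 at 50 to 100 CPM and 15 at 100 CPM or more. The sum rested on few genes, since the 10 highest held 52.3% of it. L_M ran from 2.52 to 7.01 with a median of 3.23, and it reached 3 in 68 genes, 4 in 27 and 5 in 12. L_V was above 0 in 48 of the genes and below 0 in 65.

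TPM values, which divide each count by the length of the gene and so let genes be ranked by level, were present for 109 of the 115 genes among 17698 genes in the TPM tables. Their median TPM upon *FvMYB46* overexpression was 18.2, against 17.4 for all genes of the table, so the median gene of the selection stood in the middle of the transcriptome there. In the *FvMYB46* empty vector the median TPM was 0.679, against 15.8 for all genes. Upon *FvVND4c* overexpression it was 1.16 TPM, against 15.4 for all genes, and in the empty vector of that experiment 1.26 TPM, against 17.3. Of the 109 genes, 16 were among the top 10% of genes upon *FvMYB46* overexpression and 0 in its empty vector, against 4 upon *FvVND4c* overexpression and 3 in its empty vector. The lowest 25% of the table held 16 of them upon *FvMYB46* overexpression and 96 in its empty vector, against 84 upon *FvVND4c* overexpression and 87 in its empty vector. The ranks are by whole gene span, introns included, which ranks genes with long introns too low.

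**Figure D2:**
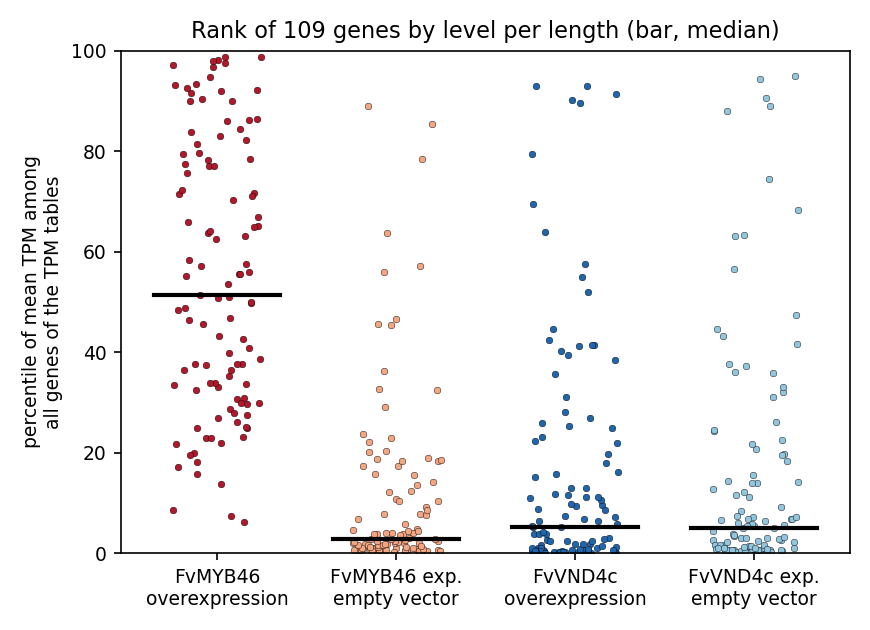
Percentile of each of 109 genes by mean TPM (vertical axis, 0 to 100) among the 17698 genes of the TPM tables, 1 point per gene, in the 4 groups, with the median as a bar. The median percentile was 51.3 upon *FvMYB46* overexpression and 2.88 in its empty vector, and it was 5.24 upon *FvVND4c* overexpression and 5.01 in its empty vector.

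Both *FvMYB46* overexpression libraries stood above all 6 other libraries for 115 of the 115 genes by CPM. The same held for 17.2% of the 21666 genes, and the rule fixes much of this order for the selection. In a single edgeR fit of all 8 libraries, a gene was called when its p, adjusted by Benjamini-Hochberg over the 18766 genes tested, was under 0.05 and its absolute log2 fold change over 1. All 115 genes passed the filter on low counts. For 66 of them, *FvMYB46* overexpression was the only group with 10 counts or more in both libraries. The filter takes any 2 libraries, also of different groups, so part of the 66 could pass without *FvMYB46* overexpression. The others of the 66 entered through the group where they were high. Against its own empty vector, *FvMYB46* overexpression was called higher for 115 of 115 genes, and for 10.1% of all genes tested. That contrast chose the genes, and nothing is read from its count.

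Against the *FvVND4c* empty vector, *FvMYB46* overexpression was called higher for 113 of the 115 genes, and for 8.58% of all genes tested. The median fitted log2 fold change was 4.02 over the 115 genes and 0.00 over all genes. Against *FvVND4c* overexpression it was called higher for 112 genes, and for 6.33% of all genes tested, with a median of 3.98 over the 115 genes and 0.03 over all genes. These libraries entered the rule too, and with L_M high and L_V near 0 a high ratio was likely, so the counts are a description. The genes that were not called in one or both are named below with their values.

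The size of the difference varied with the empty vector used. On the log2((mean CPM + 0.5) ratio) scale, the median over the 115 genes was 3.23 over the *FvMYB46* empty vector and 2.97 over the *FvVND4c* empty vector. The second ratio was at least 2.5 for 81 genes (70.4%), between 1 and 2.5 for 32 (27.8%) and under 1 for 2 (1.74%). With the 4 empty-vector libraries averaged together, 89 genes (77.4%) had a ratio of at least 2.5. The limit of 2.5 was thus passed against either empty vector by most of the selection, and by the others against their own empty vector alone.

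By their medians, the 81 genes were low in all 3 other groups, although single genes reached 28.8 CPM in the *FvMYB46* empty vector, 38.6 CPM upon *FvVND4c* overexpression and 45.5 CPM in its empty vector. Their median level was 11.3 CPM upon *FvMYB46* overexpression and 0.327 CPM in its empty vector, with 0.369 CPM upon *FvVND4c* overexpression and 0.394 CPM in its empty vector. The 32 genes had higher medians in the *FvVND4c* experiment, although 7 of them stood below 1 CPM in its empty vector. Their median level was 21.3 CPM upon *FvMYB46* overexpression and 1.44 CPM in its empty vector, with 5.96 CPM upon *FvVND4c* overexpression and 4.99 CPM in its empty vector. Median L_M was 3.58 in the 81 genes and 2.74 in the 32. Between the empty vectors, the median log2 ratio of *FvMYB46* over *FvVND4c* was -0.01 in the 81 genes and -1.05 in the 32, and it was below 0 for 43 of the 81 and for 32 of the 32.

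**Figure D3:**
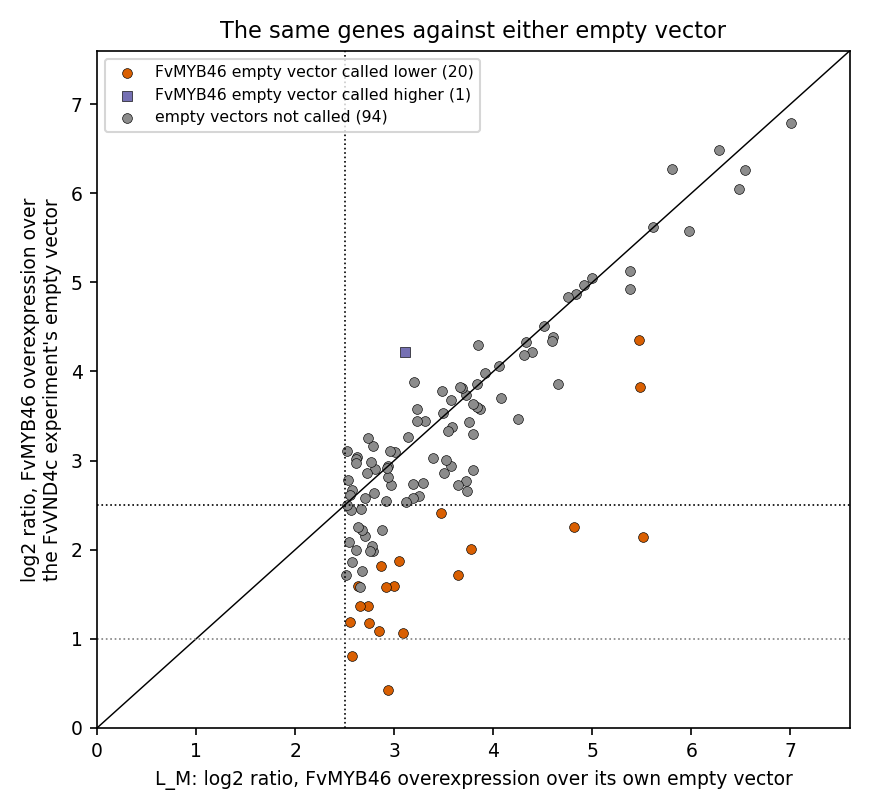
Log2 ratio of *FvMYB46* overexpression over its own empty vector (L_M, horizontal) and over the empty vector of the *FvVND4c* experiment (vertical), 1 point per gene, with the line of equal ratios, dotted lines at 2.5 on both axes and at 1 on the vertical axis. Colour marks genes whose *FvMYB46* empty vector was called lower (20) or higher (1) than the *FvVND4c* empty vector. Most genes lie near the line, and the 20 genes lie below it.

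The *FvMYB46* empty vector was called lower than the *FvVND4c* empty vector for 20 of the 115 genes (17.4%), and for 1.62% of all genes tested. Without the limit on fold change it was called lower for 24 of the 115 genes, and for 504 of the 18766 genes tested. It was then called higher for 1 of the 115, and for 314 of all genes tested. The count of 20 fell to 11 without *FvVND4c* empty vector replicate 1 and also to 11 without replicate 2. It was 10 with only the 4 empty-vector libraries in the fit. A low level in the *FvMYB46* empty vector raises L_M, so the rule favours genes of this kind and the count is no test of them. Both *FvMYB46* empty-vector libraries lay below both *FvVND4c* empty-vector libraries for 54 of the genes, against 29% of the 21666 genes. They lay above both for 7 of the genes, and for these the share over all genes was not computed. The *FvMYB46* empty vector was called higher for 1 gene, and for 0.618% of all genes tested.

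The 20 genes had higher medians than the rest, and 15 of them stood over 10 CPM upon *FvMYB46* overexpression. Their median level was 40.1 CPM upon *FvMYB46* overexpression and 1.80 CPM in its empty vector, with 7.59 CPM upon *FvVND4c* overexpression and 6.82 CPM in its empty vector. In the other 95 genes these medians were 10.6 and 0.343 CPM in the *FvMYB46* experiment, overexpression before empty vector, and 0.463 and 0.436 CPM in the *FvVND4c* experiment in the same order. *FvMYB46* overexpression was still called higher than the *FvVND4c* empty vector for 18 of the 20 genes and not for 2, and for 2 of the 20 that log2 ratio was at least 2.5. Of the 15 genes at 100 CPM or more upon *FvMYB46* overexpression, 7 had a log2 ratio between the empty vectors below -1. Whether the 2 empty-vector groups differ through the fruits, the infiltration or the library preparation was not tested.

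Members were given by identifier by a fixed rule, at the ends of each ranking. The largest L_M, 7.01, belonged to *FvH4_2g18610*, on the plus strand of chromosome 2 at 15941491 to 15941968. It stood at 70.2 and 68.4 CPM upon *FvMYB46* overexpression, against 0.0856 and 0 CPM in its empty vector, 0 and 0 CPM upon *FvVND4c* overexpression and 0.180 and 0.0841 CPM in the *FvVND4c* empty vector. The gene was all but silent outside *FvMYB46* overexpression. The empty vector of its own experiment held 1 count, and the ratio of pooled counts was 1698 with a 95% exact binomial interval of 304 to 67112. Against the *FvVND4c* empty vector, with 3 counts, the ratio was 530 with an interval of 181 to 2574. These intervals cover counting error only.

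The same all-or-nothing pattern held for the next gene by L_M and for the next by its ratio over the *FvVND4c* empty vector. *FvH4_3g32680*, on the plus strand of chromosome 3 at 27977543 to 27978863, stood at 58.8 and 56.3 CPM upon *FvMYB46* overexpression, against 0.171 and 0.0778 CPM in its empty vector. It held 0.0860 and 0 CPM upon *FvVND4c* overexpression, against 0.180 and 0.337 CPM in the empty vector of that experiment. Its ratio of pooled counts over its own empty vector, with 3 counts, was 470 with a 95% exact binomial interval of 161 to 2283. *FvH4_5g03030*, on the plus strand of chromosome 5 at 1817665 to 1819485, was likewise at background in 3 of the 4 groups. It stood at 45.9 and 50.3 CPM upon *FvMYB46* overexpression, against 0.171 and 0.0778 CPM in its empty vector. It stood at 0 and 0.102 CPM upon *FvVND4c* overexpression, against 0 and 0.0841 CPM in the *FvVND4c* empty vector. For all 3 genes the *FvMYB46* overexpression libraries were far above the other 6, each of which held few counts or none.

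The 2 genes with the highest level were expressed in every library. *FvH4_4g12490*, on the plus strand of chromosome 4 at 16157332 to 16161631, stood at 445 and 468 CPM upon *FvMYB46* overexpression, against 72.2 and 70.1 CPM in its empty vector. In the *FvVND4c* experiment it stood at 148 and 146 CPM upon overexpression, against 134 and 134 CPM in the empty vector. The *FvMYB46* empty vector was thus the lowest group, and the fitted log2 fold change of *FvMYB46* over *FvVND4c* empty vector was -0.86 with a standard error of 0.09. *FvH4_1g00345*, on the plus strand of chromosome 1 at 188024 to 190321, stood at 428 and 435 CPM upon *FvMYB46* overexpression, against 55.5 and 57.8 CPM in its empty vector. It stood at 113 and 115 CPM upon *FvVND4c* overexpression, against 138 and 150 CPM in the empty vector of that experiment. For this gene L_M was 2.92, and the log2 ratio over the *FvVND4c* empty vector was 1.58. Both genes thus rank highest by level but exceed the *FvVND4c* empty vector by less than the 2.5 that the rule asks against their own.

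The ratio over the *FvVND4c* empty vector was smallest for *FvH4_7g17850*, on the plus strand of chromosome 7 at 15035045 to 15044404. It stood at 116 and 116 CPM upon *FvMYB46* overexpression, against 18.8 and 10.6 CPM in its empty vector. Upon *FvVND4c* overexpression it stood at 79.4 and 91.0 CPM, against 89.5 and 83.1 CPM in the empty vector. The *FvMYB46* empty vector stood apart from the 3 other groups for this gene, and the phrase raised by *FvMYB46* fits it only against that empty vector. The fitted log2 fold change of *FvMYB46* overexpression over the *FvVND4c* empty vector was 0.47 with a standard error of 0.17, and the gene was not called. It was picked as the smallest on this ratio, so this is a description and no p is given. Its span overlaps a gene on the opposite strand, whose L_M was 0.11. It also overlaps a gene on the same strand, with 0 CPM upon *FvMYB46* overexpression and an L_M of 0. No source states whether counting used strand, so reads of the overlaps cannot be assigned.

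*FvH4_2g40410*, on the minus strand of chromosome 2 at 28781905 to 28784269, was a low gene with the same order of groups. It stood at 4.91 and 4.07 CPM upon *FvMYB46* overexpression, against 0.599 and 0.0778 CPM in its empty vector. Upon *FvVND4c* overexpression it stood at 2.67 and 1.95 CPM, against 2.16 and 2.52 CPM in the empty vector. Over the *FvVND4c* empty vector its fitted log2 fold change was 0.97 with a standard error of 0.35, and it was not called. It too was picked by this ratio, so no p is given. Neither *FvH4_7g17850* nor *FvH4_2g40410* was called against *FvVND4c* overexpression. Another gene in that comparison, *FvH4_7g30860*, named after its values were seen, passed the adjusted p but had a log2 fold change of 0.98.

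Between the empty vectors, the log2((mean CPM + 0.5) ratio) of *FvMYB46* over *FvVND4c* was lowest for *FvH4_1g00340*, at -3.36. It lies on the plus strand of chromosome 1 at 168395 to 170303. It stood at 0.257 and 0.0778 CPM in the *FvMYB46* empty vector, against 5.68 and 7.07 CPM in the *FvVND4c* empty vector. The overexpression libraries held 28.4 and 31.4 CPM for *FvMYB46* and 6.45 and 8.50 CPM for *FvVND4c*. L_M was 5.51 for this gene, and the log2 ratio over the *FvVND4c* empty vector was 2.14. Its own empty vector was nearly silent, at 4 counts over the 2 libraries, while the other 3 groups were not.

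*FvH4_7g03220*, on the minus strand of chromosome 7 at 3551402 to 3553179, followed with -2.57. It stood at 9.93 and 6.46 CPM in the *FvMYB46* empty vector, against 52.5 and 49.6 CPM in the *FvVND4c* empty vector. Upon overexpression it stood at 239 and 249 CPM for *FvMYB46* and at 67.1 and 76.4 CPM for *FvVND4c*, so *FvMYB46* overexpression remained far above all other libraries. Its L_V of 0.49 was the closest to the upper limit of the rule.

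At the other end, *FvH4_3g34830*, on the minus strand of chromosome 3 at 30110771 to 30114131, had counts in the *FvMYB46* experiment alone. It stood at 9.31 and 8.31 CPM upon *FvMYB46* overexpression, against 0.685 and 0.467 CPM in its empty vector, and 0 CPM in all 4 libraries of the *FvVND4c* experiment. With 3 counts assumed over the 2 *FvVND4c* empty-vector libraries, *FvMYB46* overexpression was 67.5-fold higher. The *FvMYB46* empty vector, with 14 counts, was then 4.41-fold higher. For *FvMYB46* overexpression over the *FvVND4c* empty vector, the lower 95% exact binomial limit of the ratio of pooled counts was 54.3, for counting error only. *FvH4_3g34830* was the 1 gene called higher in the *FvMYB46* empty vector. *FvH4_2g00100*, on the minus strand of chromosome 2 at 216658 to 218943, stood at 36.6 and 34.9 CPM upon *FvMYB46* overexpression and at 2.32 and 1.54 CPM upon *FvVND4c* overexpression. It had 4.45 and 2.41 CPM in the *FvMYB46* empty vector, against 1.71 and 2.19 CPM in the *FvVND4c* empty vector, a log2 ratio of 0.68. The empty vectors of this gene did not overlap but lay close, and they were not called different. The gene was picked by this ratio, so no p is given.

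**Figure D4:**
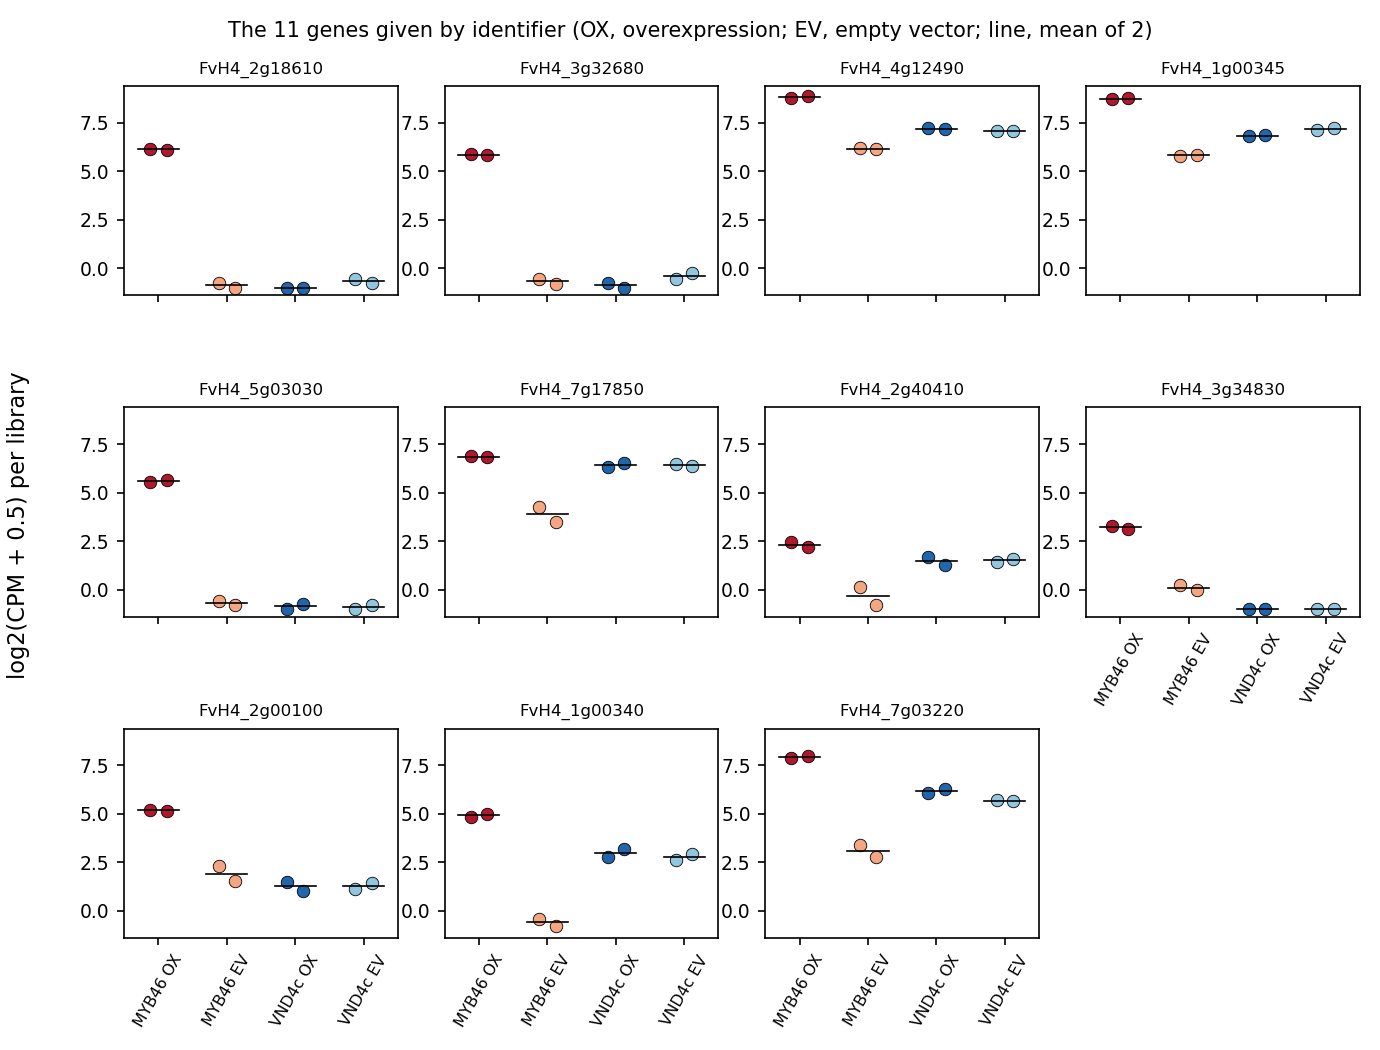
Level of the 11 genes given by identifier as log2(CPM + 0.5) (vertical axis, the same in all panels; 0 CPM lies at -1) in the 4 groups, 1 point per library and a line at the mean of 2. *FvH4_2g18610*, *FvH4_3g32680* and *FvH4_5g03030* are near the floor outside *FvMYB46* overexpression, while for *FvH4_7g17850*, *FvH4_1g00340* and *FvH4_7g03220* the *FvMYB46* empty vector lies below both groups of the *FvVND4c* experiment.

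The spread between libraries was small where the genes were high. Upon *FvMYB46* overexpression the median absolute log2 ratio of the 2 libraries was 0.11 over the 115 genes and 0.12 over the 21666 genes, and it exceeded 1 for 0 of the 115. In the *FvMYB46* empty vector it was 0.32 over the 115 genes and 0.23 over all, and it exceeded 1 for 8. In that group replicate 1 was higher than replicate 2 for 83 of the 115 genes (72.2%), against 60.6% of all genes. Without *FvMYB46* empty vector replicate 2, the rule kept 98 of the 115 genes, and without replicate 1 it kept 109. The median was 0.26 upon *FvVND4c* overexpression and 0.22 in its empty vector. Many of the genes had few counts, with at most 3 over both *FvMYB46* empty-vector libraries for 26, upon *FvVND4c* overexpression for 28 and in its empty vector for 19. These ratios were taken with 0.5 CPM added to each library, which damps them at such counts.

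Position and gene model were not used by the rule beyond the regions left out. The 115 genes lay on all 7 chromosomes, with 14, 21, 16, 16, 15, 20 and 13 on chromosomes 1 to 7, which is 0.458 per 100 genes on chromosome 3 at the least and 0.662 on chromosome 2 at the most. The median gene span was 2679 bp, against 3036 bp over the 21666 genes. The plus strand held 63 of the 115. The spans of 9 genes (7.83%) overlap another gene, against 13.8% of the 21666 genes, and the highest L_M of an overlapped gene was 1.05. The values show no chromosome that holds most of the selection.

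A few of the genes lie close together. When each gene was joined to the next selected gene if their starts lay within 50 kb, 15 of the 115 fell into 7 groups, and the largest held 3 genes between 168395 and 236952 on chromosome 1, with 13 other genes among them. This group includes *FvH4_1g00340* and *FvH4_1g00345*. Immediate neighbours were found for 2 pairs. One pair lies on the plus strand of chromosome 2 at 26148986 to 26151708 with 213 bp between the genes and L_M of 4.25 and 5.47. The other lies on the minus strand of chromosome 3 at 1740132 to 1750099 with 2440 bp between the genes and L_M of 3.76 and 4.08. Reads that run from one gene of a close pair into the next cannot be told apart from separate transcripts in these counts.

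The genes next to the selected ones mostly stayed near their empty-vector level. The 138 such genes that were not selected themselves had a median L_M of 0.12, against 0.01 over the 21551 genes not selected. L_M was at least 1 for 19 of the 138 (13.8%), against 7.15%, and at least 2.5 for 1 of them (0.725%), against 1.12%.

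Set beside the other genes of high L_M, the 115 genes had the lowest medians in both empty vectors. The rule favours this order, since the 0.5 CPM added to each mean holds L_V near 0 for genes close to silent. In the *FvVND4c* empty vector, 68 of the 115 genes stood below 1 CPM, against 61 of the 203 genes and 10 of the 39 genes described next. Their median level was 11.4 CPM upon *FvMYB46* overexpression and 0.420 CPM in its empty vector. In the 203 genes with L_V above 0.5 the medians were 34.0 CPM upon *FvMYB46* overexpression and 1.52 CPM in its empty vector, with 15.4 CPM upon *FvVND4c* overexpression and 1.93 CPM in its empty vector. In the 39 genes with L_V below -0.5 they were 16.5 and 1.10 CPM in the *FvMYB46* experiment, again overexpression before empty vector, and 1.11 and 2.84 CPM in the *FvVND4c* experiment. The log2 ratio of *FvMYB46* over *FvVND4c* empty vector was below -1 for 22 of the 115 genes (19.1%). The same held for 32 of the 203 (15.8%), for 19 of the 39 (48.7%) and for 1.85% of the 21666 genes. A log2 ratio of *FvMYB46* overexpression over the *FvVND4c* empty vector of at least 2.5 was found in 81 of the 115 (70.4%), 149 of the 203 (73.4%) and 13 of the 39 (33.3%). The sets were defined on these same values, so their differences were not tested.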

How the data were processed

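RNA-seq libraries of fruits from 4 groups, 2 libraries each, were analysed. The count files deposited by the authors hold whole reads per gene, made per the methods with fastp 0.20.1, HISAT2 2.2.1 on the *F. vesca* v4.0.a2 genome, SAMtools 1.9 and featureCounts 2.0.3. The deposited TPM values, computed by the authors from the same counts over the gene span for 17698 genes, were used for ranks alone. The methods state more biological replicates than the 2 in the labels, and the 2 were used.

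CPM was computed from library totals. Counts were tested in edgeR 4.0.16 (R 4.3.3, limma 3.58.1) with TMM scaling, filterByExpr and the quasi-likelihood test, all 8 libraries and 4 groups in 1 fit, without covariates. This kept 18766 genes (55.2%). Standard errors were the fold change over the square root of F, which is approximate. The procedure was tested on simulated data. Genes given by identifier were the 2 with the largest L_M, the 2 with the highest level, and the 2 largest and 2 smallest ratios over the *FvVND4c* empty vector and between empty vectors. The members and lists were chosen with earlier results of these data known. The alternatives tried for each result numbered 15, among them DESeq2 1.42.0, other filters, pseudocounts and scalings, and each library left out.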

Additional observations from a re-analysis of the deposited data

How the results depend on the processing

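The number of genes selected was 175 with no minimum in the empty-vector libraries, and it lay between 106 and 145 with any 1 library left out, without *FvMYB46* empty vector replicate 2 at the low end and without its replicate 1 at the high end. It depended on the pseudocount, with 170 genes at 0.1 CPM (83 of the 115 among them) and 90 at 1 CPM (80 of the 115). In alternatives added after seeing the data, L_M against all 4 empty-vector libraries gave 94 genes (89 of the 115), and L_M against the *FvVND4c* empty vector gave 93 (81 of the 115). With a minimum of 10 counts in every library, only 36 of the 115 genes were tested. *FvMYB46* overexpression was then called higher for 36 against its own empty vector, 35 against the *FvVND4c* empty vector and 34 against *FvVND4c* overexpression, and its empty vector lower than that of *FvVND4c* for 13. That last count was 10 in a fit of the 4 empty-vector libraries alone, in which 49 genes were tested, and 11 to 25 with any 1 library left out. With any 1 library left out, the other counts were 115 to 115, 112 to 113 and 110 to 112. A fit with the replicate number as a block gave 115, 113, 112 and 20 calls, as without it. Same-numbered libraries deviated together with correlations of 0.0989 to 0.195 over the 6 pairs of groups, the labels do not say what a number shares, and the numbers were not taken as pairs. Depth limits ratios against silent groups, where 3 counts are 0.234 to 0.307 CPM.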
